A study of Gallus gallus with 66 samples.

Results

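The genes described here encode transcription factors that give cells a positional identity: the HOX genes of the A, B, C and D clusters, the T-box (TBX) genes, the MEIS and PBX cofactors, and the homeobox genes PRRX1, PRRX2, PITX1 and PITX3. They were taken by symbol, as every probe set whose only annotated gene was HOXA to HOXD with a number, TBX with a number, MEIS1, MEIS2, PBX3, PBX4, PRRX1, PRRX2, PITX1 or PITX3. This gave 93 probe sets for 49 genes, of 13009 genes named on the array. Each gene is described by its brightest probe set, judged by the mean over the 66 arrays.

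HOX genes lie in clusters, and their order along a cluster follows the order of their domains along the head-to-tail axis, with low-numbered paralogues more anterior and high-numbered ones more posterior. In vertebrate embryos retinoic acid switches on the low-numbered end of the clusters first, and Polycomb proteins keep unused HOX genes silent. MEIS and PBX proteins bind DNA beside HOX proteins. Adult stromal cells keep part of this positional code, and in humans and mice fat depots at different sites differ in their HOX and TBX expression. TBX15 differs between depots of mouse fat, PITX1 specifies the hindlimb, TBX5 the forelimb and heart, and PRRX1 and PRRX2 mark limb and craniofacial mesenchyme.

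By their labels the samples were preadipocytes, the fibroblast-like precursors of fat cells, hybridised to Affymetrix chicken arrays. They came from the abdominal fat of a fat and a lean chicken line. Tissue of 15 male birds aged 10 days was pooled for each line, digested and cleared of floating adipocytes and red cells. In each line 11 groups of 3 arrays were made: uncultured cells, cells passaged once and taken at 50% confluence (−12 h) or 95% confluence (0 h), and cells given either 160 µg/ml oleate or no oleate (control) from then on and taken after 12, 24, 72 and 120 h. A line is thus represented by 1 pool of birds, and the labels do not say whether replicate arrays come from separate dishes, so the p-values measure the spread between arrays, which may be technical.

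Values are log2 signals, floored at 1.61. A probe set was tested where it lay above the array median of 4.17 on all 3 arrays of at least 1 group. Pairs of arrays of a group correlated with a median r of 0.965 over tested probe sets, against 0.948 between groups. Of 12 stromal markers 11 passed the filter, and all of these but PDGFRA were above the array median in all 22 groups, while DLK1, a preadipocyte marker in mammals, was above it in no group. The arrays are named in 2 styles: the control arrays from 12 to 120 h and the fat-line arrays at −12 h have one, and the others have the second, apart from 1 fat oleate array at 120 h (replicate 3), which has no name. What the styles stand for is not stated. Every comparison of oleate with control arrays crosses them. So does any comparison of fat-line −12 h arrays with fat-line 0 h, uncultured or oleate arrays, or with lean-line −12 h arrays. Control arrays set against uncultured or 0 h arrays of either line, or against lean-line −12 h arrays, cross them too.

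Of the 49 genes 26 passed the filter and 23 did not. Within the HOX genes 17 of 29 passed, and they were spread unevenly over the clusters: 9 of 10 in HOXA, 6 of 9 in HOXB, 1 of 4 in HOXC (HOXC9) and 1 of 6 in HOXD (HOXD8). MEIS1, MEIS2, PBX3, PBX4, PRRX1, PRRX2 and PITX1 passed, and so did TBX5 and TBX15, 2 of the 12 TBX genes. Of the 26 genes 17 were above the array median in all 22 groups. The low ones were HOXB6 and TBX5, above it in 1 group each, TBX15 in 5, MEIS1 in 9, HOXA13 in 10 and HOXD8 in 13.

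The 23 genes that did not pass were HOXA2, HOXB1, HOXB8, HOXB13, HOXC8, HOXC11, HOXC13, HOXD4, HOXD10, HOXD11, HOXD12, HOXD13, PITX3, TBX1, TBX2, TBX3, TBX4, TBX6, TBX10, TBX18, TBX19, TBX20 and TBX22. None was above the array median on all 3 arrays of any group, and their group means ran between 1.61 and 4.35. TBX4, the hindlimb T-box factor, had group means of 1.61 to 3.64, and HOXD13, a distal limb gene, of 2.24 to 3.56. A low signal can come from a poor probe set as well as from little transcript, and levels of different probe sets are not set against each other here. A gene that passed only where it was high had to vary, so the counts below describe the 26 and not all 49.

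**Figure D1:**
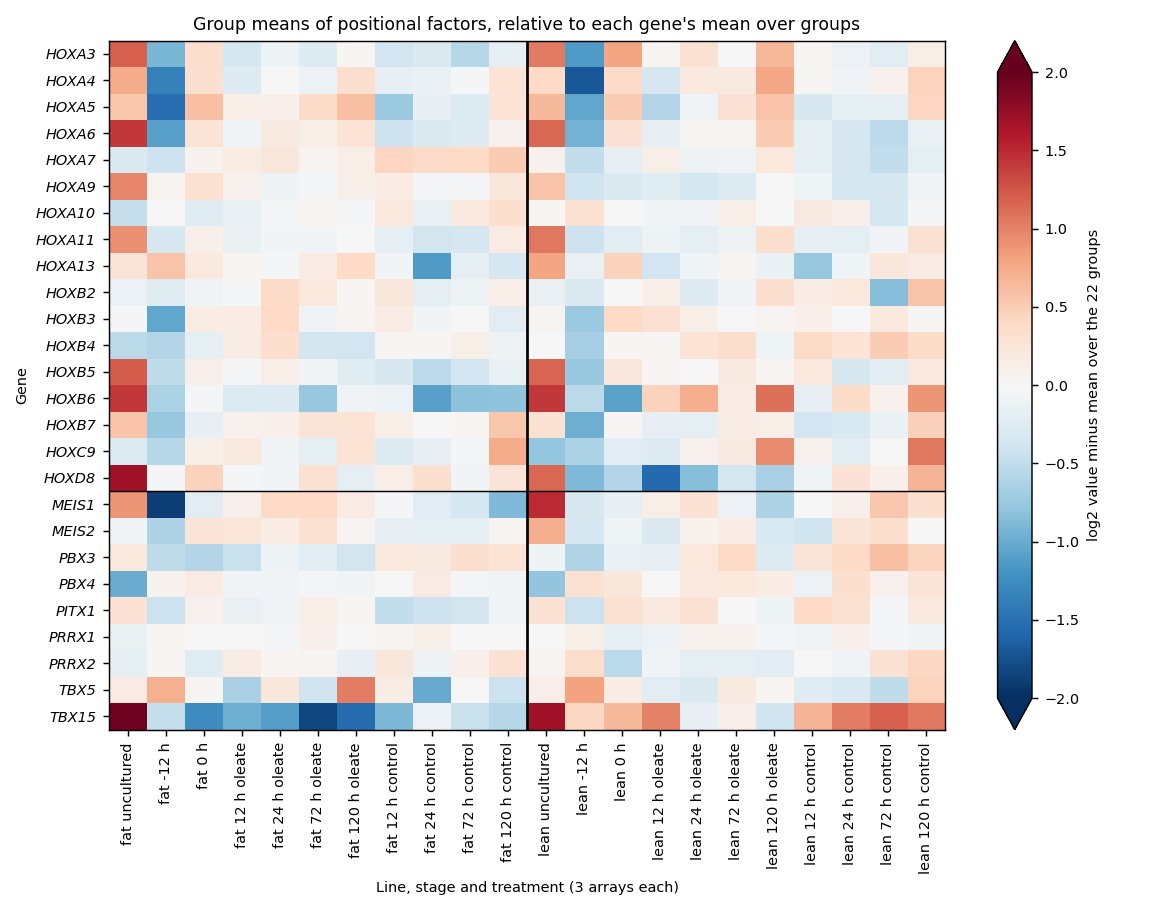
Each row is a gene that passed the filter and each column a group of 3 arrays, with fat-line groups on the left and lean-line groups on the right; colour gives the group mean minus the gene's mean over the 22 groups, in log2 units. HOXA3 to HOXA6 are blue at −12 h in both lines (for HOXA4, means of 6.38 in the fat line and 6.03 in the lean line), and TBX15 is dark red in uncultured cells of both lines (5.56 and 5.32).

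Several HOX genes were higher at confluence (0 h) than at 50% confluence (−12 h) in both lines. These stages differ in hours of culture as well as in confluence, which cannot be told apart here. HOXA3, HOXA4, HOXA5, HOXA6 and HOXB3 rose in the fat line and in the lean line, by log2 differences between 1.13 and 2.13. In the fat line 7 of 26 genes were called (an adjusted p under 0.05, limma with Benjamini-Hochberg adjustment over 22060 probe sets), all higher, where 14% of the 22060 were called, 7.55% higher. For the lean line the count was 8 of 26, with 7 higher and 1 lower, against 1.9% of the 22060, 1.1% higher. The median difference of the 26 genes was 0.49 in the fat line and 0.31 in the lean line, and that of all tested probe sets was −0.03 and 0.01. Both shares of members called higher (26.9%) were thus above the background. In these bulk samples fewer cells of a type and less RNA per cell cannot be told apart.

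HOXA5, a factor of the neck and upper trunk, had 6.40, 6.68 and 7.10 at 0 h in the fat line, against 4.61, 4.01 and 5.18 at −12 h. Its lean-line values were 6.71, 6.83 and 6.33 at 0 h, against 5.15, 5.08 and 5.02 at −12 h. The groups did not overlap in either line. The difference was 2.13 ± 0.29 (SE, adjusted p = 3.55e-07 from limma) in the fat line and 1.54 ± 0.29 (adjusted p = 0.00164) in the lean line, that is 4.36-fold and 2.91-fold.

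HOXA4, its neighbour in the cluster, had 7.57, 7.75 and 8.81 at 0 h in the fat line, against 6.49, 6.33 and 6.33 at −12 h. Its lean-line values were 8.37, 8.33 and 7.64 at 0 h, against 5.75, 5.93 and 6.41 at −12 h. Each 0 h array lay above each −12 h array of its line. The difference was 1.66 ± 0.37 (adjusted p = 0.00119) in the fat line and 2.08 ± 0.37 (adjusted p = 0.00113) in the lean line, from limma.

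HOXA3, which patterns the pharyngeal arches, had 8.0, 7.95 and 8.77 at 0 h in the fat line, against 7.01, 6.90 and 7.08 at −12 h. Its lean-line values were 8.89, 8.59 and 8.64 at 0 h, against 6.69, 6.60 and 7.07 at −12 h. Again neither line's groups overlapped, and the lean difference (1.92 ± 0.32, adjusted p = 0.000449) and the fat difference (1.25 ± 0.32, adjusted p = 0.00518) were both called by limma. The fat call depended on 1 array: without replicate 3 of the fat 0 h group, the one at 8.77, the difference was 0.98 with an adjusted p of 0.0653.

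HOXA6 had 9.34, 9.62 and 10.41 at 0 h in the fat line, against 8.42, 8.39 and 8.49 at −12 h, a difference of 1.36 ± 0.24 (adjusted p = 4.84e-05, limma). Lean-line values were 9.82, 10.05 and 9.57 at 0 h, against 8.38, 8.77 and 8.58 at −12 h, a difference of 1.24 ± 0.24 (adjusted p = 0.00268, limma). Replicate 3 of the fat 0 h group was the highest of its group for HOXA3, HOXA4, HOXA5 and HOXA6 alike.

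HOXB3, the HOXB paralogue of HOXA3, had 7.70, 7.88 and 8.17 at 0 h in the fat line, against 6.50, 6.94 and 6.75 at −12 h. Lean-line values were 8.28, 8.11 and 8.11 at 0 h, against 6.81, 7.13 and 7.14 at −12 h. Its arrays varied least of these genes and its differences, 1.18 ± 0.15 in the fat line and 1.13 ± 0.15 in the lean line, had adjusted p-values of 1.35e-07 and 2.64e-05 (limma).

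**Figure D2:**
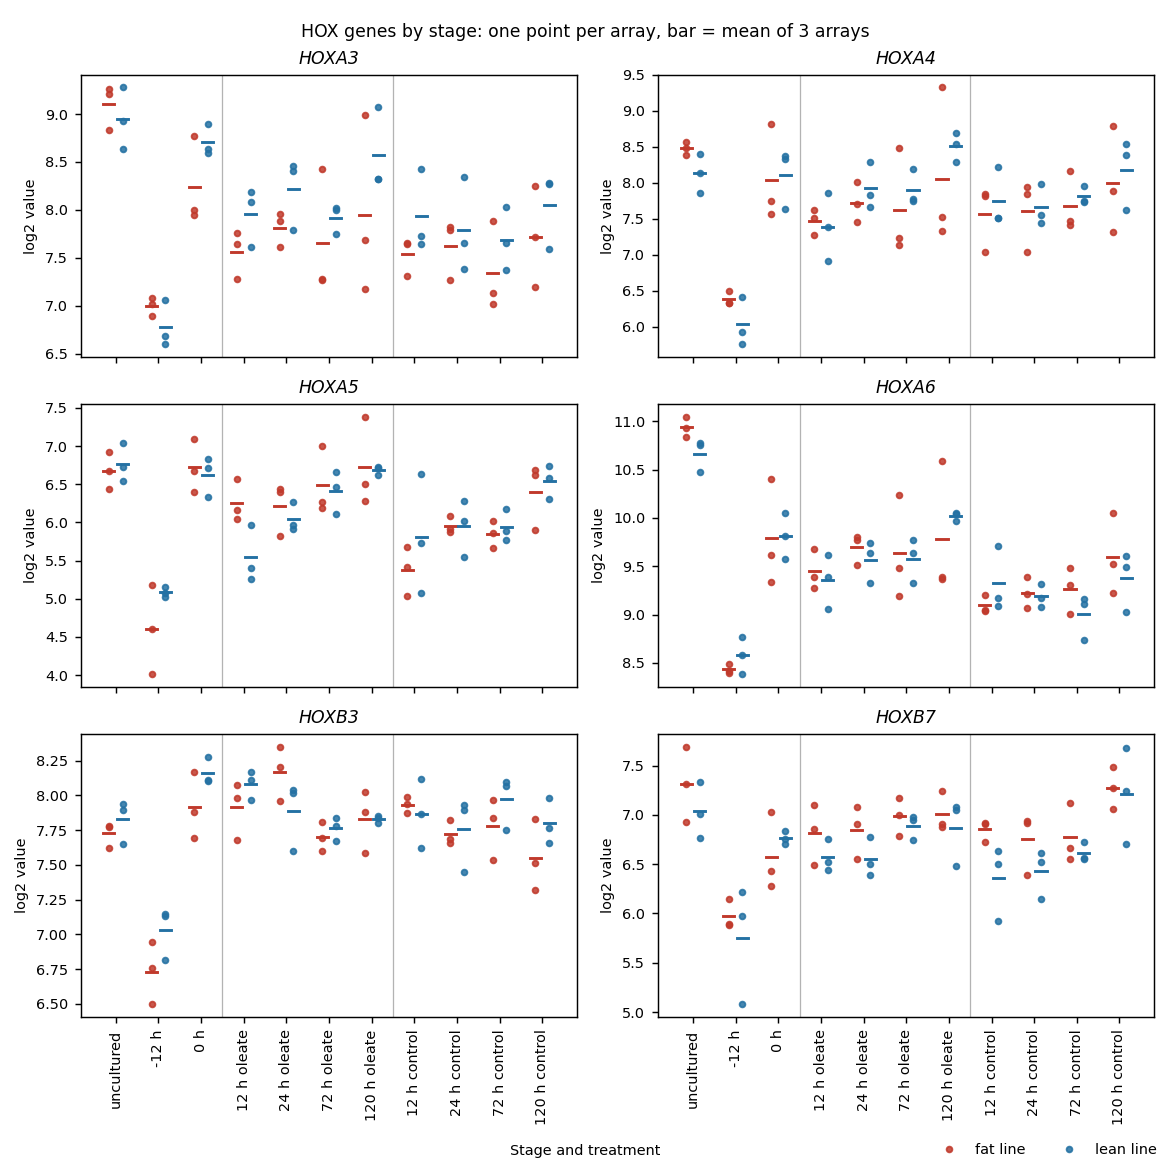
Log2 values of HOXA3, HOXA4, HOXA5, HOXA6, HOXB3 and HOXB7 on each array (points) and their group means (bars) by stage, with oleate cultures before control cultures and the fat line to the left of the lean line. In each panel the −12 h groups have the lowest means of their line, for HOXA4 6.38 in the fat line and 6.03 in the lean line.

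HOXB5 and HOXB7 were called in the lean line only, yet their fat differences had the same sign and the difference between the lines was not called for either. HOXB7 had 6.76, 6.83 and 6.70 at 0 h in the lean line, against 5.97, 5.08 and 6.21 at −12 h (1.01 ± 0.24, adjusted p = 0.0132, limma), and without replicate 2 of the −12 h group it was no longer called (0.67, adjusted p = 0.223), nor without replicate 1 of the 0 h group (1.01, adjusted p = 0.0524). HOXB5 differed by 0.98 ± 0.24 in the lean line (adjusted p = 0.0164, limma) and by 0.62 ± 0.24 in the fat line (adjusted p = 0.0696). MEIS1 and MEIS2, cofactors of HOX proteins, were called in the fat line only. MEIS1 had 3.71, 5.08 and 4.26 at 0 h in the fat line, against 1.61, 2.75 and 3.65 at −12 h, the first of these at the floor, and its call (1.68 ± 0.48, adjusted p = 0.0116, limma) was lost without replicate 1 of the −12 h group (1.15, adjusted p = 0.155) or replicate 2 of the 0 h group (1.32, adjusted p = 0.0977). MEIS2 differed by 0.88 ± 0.23 in the fat line (adjusted p = 0.00672, limma), with no overlap between its groups, and by 0.25 ± 0.23 in the lean line. PRRX2 was the gene called lower, in the lean line (−0.90 ± 0.20, adjusted p = 0.00821), and its difference in the fat line was −0.28 ± 0.20.

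Grouped by paralogue number, 6 of 9 genes of groups 2 to 6 were called higher in the lean line and 5 of 9 in the fat line, with median differences of 1.13 and 1.18. Of all tested probe sets 1.1% were called higher in the lean line and 7.55% in the fat line. The cut after group 6 was not among the planned groupings. It falls where the called HOXA genes end, so these counts only describe the values. HOXB2 (0.15 fat, 0.28 lean), HOXB4 (0.41 fat, 0.71 lean) and HOXB6 (0.60 fat, −0.53 lean) were called in neither. Of the 8 genes of groups 7 to 13, HOXB7 was called in the lean line and none in the fat line, with median differences of 0.31 and 0.45. HOXA7, the next gene along the cluster from HOXA6, differed by 0.48 ± 0.22 in the fat line and 0.32 ± 0.22 in the lean line and was not called, while its second probe set was called higher in the fat line (1.02, adjusted p = 0.000615, limma) and not in the lean line (0.58, adjusted p = 0.161). HOXA9, HOXA10 and HOXA11 differed by 0.25, −0.25 and 0.42 in the fat line and by 0.12, −0.31 and 0.20 in the lean line. The test of the difference between the lines' confluence effects, added after the values were seen, called none of the 26 genes (2 at an unadjusted p under 0.05), where 2.71% of all tested probe sets were called.

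**Figure D3:**
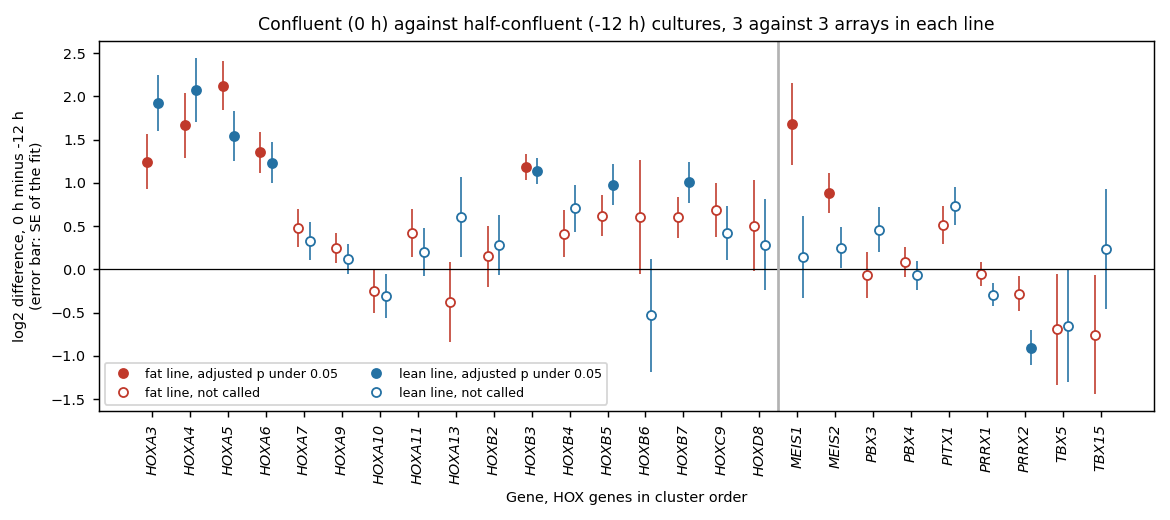
Log2 difference between 0 h and −12 h cultures for each gene, in the fat line (red) and the lean line (blue), with the SE of the fit as the error bar; filled points were called at an adjusted p under 0.05. HOX genes run in cluster order, and the called ones lie between HOXA3 (1.25 and 1.92) and HOXA6 (1.36 and 1.24) and between HOXB3 and HOXB7.

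In the RefSeq annotation of the chicken assembly GRCg7b the HOXA3 gene model overlaps those of HOXA4, HOXA5 and HOXA6, and the HOXB3 model overlaps HOXB4, HOXB5 and HOXB6. The HOXA9 model also overlaps HOXA10, and the HOXB5 model overlaps HOXB6. Where the probes lie within these models is not known, so signals of these neighbours may share transcripts. The brightest probe sets of HOXA5, PBX3, PBX4 and PRRX2 carry s_at in their names, and whether they match other transcripts was not checked. The brightest one of HOXA10 carries A1, and its orientation was not checked. Second probe sets of the called genes were weaker and none was called: for HOXA6 the difference was 0.41 in the fat line and 0.51 in the lean line, for HOXA5 0.73 and 0.78, and for HOXB3 0.05 and −0.12. MEIS2's second probe set had the opposite sign in the fat line (−0.52, adjusted p = 0.157). The HOXA5 and HOXB3 second probe sets were dim, with means of 3.58 and 3.96 over all arrays.

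Of 38 genes chosen as HOX regulators and retinoid components, 22 passed the filter. The confluence comparison of the lean line called 1 of them, RARB, a retinoic acid receptor that is itself switched on by retinoic acid (1.50 ± 0.32, adjusted p = 0.0061, limma). In the fat line 3 were called: RARB (1.43 ± 0.32, adjusted p = 0.00114) and the histone methyltransferase KMT2A (0.37 ± 0.11) higher and the H3K27 demethylase KDM6A (−0.96 ± 0.19) lower. Of 65 other patterning factors 34 passed the filter. None was called in the lean line, and 5 were called in the fat line, 4 higher and 1 lower, among them PKNOX1, a cofactor related to MEIS (0.99 ± 0.20), TWIST1 (−0.91 ± 0.29), EN1 (0.84 ± 0.28) and GATA6 (0.82 ± 0.25). Their medians, −0.04 in the lean line and −0.08 in the fat line, were close to that of all tested probe sets. Of all tested probe sets 14% were called in the fat line and 1.9% in the lean line. The fat-line counts of both lists were thus near the background.

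No stromal, macrophage, endothelial, lymphocyte, erythroid, skeletal muscle or mesothelial and epithelial marker was called in the confluence comparison of either line. Of 5 smooth muscle markers MYH11 was called higher in the lean line (2.42, adjusted p = 0.00745, limma) and ACTA2 lower in the fat line (−1.04, adjusted p = 0.0473). Of 9 adipocyte markers PPARG was called lower in the fat line (−0.81, adjusted p = 0.022), with a difference of −0.82 in the lean line (adjusted p = 0.0776). Mean stromal marker level was 10.85 at 0 h and 10.89 at −12 h in the fat line, and 10.90 and 10.93 in the lean line. Mean adipocyte marker level was lower at 0 h, with 6.17 against 6.61 in the fat line and 6.12 against 6.82 in the lean line. Added control RNAs moved in the fat comparison, where 18 of 36 bacterial poly-A probe sets were called lower (median −0.47), and hardly in the lean one, where 1 was called higher. The fat comparison also crosses array-name styles, and the lean one does not. The part of these in the results was not tested.

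Set against uncultured cells, cultures at 0 h had lower levels of part of the same genes. Of the 26 genes 14 were called, 2 higher and 12 lower. Of all tested probe sets 68.9% were called, 40.8% higher and 28.1% lower. HOXB6, among the 12 lower genes, passed the filter only through uncultured fat-line cells, which favoured a lower value at 0 h. The median difference of the 26 was −0.24, against 0.18 for all tested probe sets. The share of genes called (53.8%) was thus below the background, and most of the called genes were lower, where more of all called probe sets were higher.

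TBX15 had the lowest difference. Its 6 arrays at 0 h had a lowest value of 1.61, a median of 3.60 and a highest of 5.41, against 4.74, 5.53 and 5.85 in uncultured cells. The groups overlapped, and the log2 difference was −2.11 ± 0.49 (adjusted p = 0.000163, limma). The fall in the fat line (−3.18 ± 0.69) was called, as were 59.5% of all tested probe sets in that line, and the difference in the lean line (−1.05 ± 0.69, adjusted p = 0.197) was not, where 57.7% were, and the test of the difference between them was not called (−2.13 ± 0.98, adjusted p = 0.253). With 2 arrays at the floor the size depends on the floor.

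HOXB6 had 1.61, 2.06 and 3.74 at 0 h (lowest, median and highest of 6), against 4.17, 4.35 and 4.74 in uncultured cells, with no overlap (−1.97 ± 0.46, adjusted p = 0.000206, limma) and 3 arrays at the floor. HOXB6 passed the filter only through uncultured fat-line cells, so a lower value at 0 h was favoured by the filter, and its test supports nothing further. HOXD8, a trunk gene, had 3.51, 4.86 and 5.49 at 0 h, against 5.31, 6.18 and 7.07 in uncultured cells, a difference of −1.48 ± 0.37 (adjusted p = 0.000457, limma). The highest 0 h arrays of HOXD8 lay within the range of uncultured cells. MEIS1 had 3.71, 4.19 and 5.10 at 0 h, against 4.95, 5.69 and 6.48 in uncultured cells (−1.37 ± 0.34, adjusted p = 0.000347, limma).

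HOXA11, a gene of the forearm and the reproductive tract in mice, had 6.10, 6.49 and 6.67 at 0 h, against 7.20, 7.48 and 7.66 in uncultured cells, with no overlap (−1.04 ± 0.20, adjusted p = 8.35e-06, limma). PBX4, a DNA-binding partner of HOX proteins, went the other way. It had 6.95, 7.06 and 7.53 at 0 h, against 5.66, 5.97 and 6.50 in uncultured cells, also with no overlap, and rose by 1.09 ± 0.12 (adjusted p = 2.5e-11, limma). All 3 probe sets of PBX4 were called higher, the others by 1.16 and 1.45.

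The other called genes were HOXB5 (−1.01), HOXA6 (−1.0), HOXA9 (−0.77), HOXA3 (−0.55), HOXB7 (−0.50), PBX3 (−0.41) and PRRX2 (−0.32), all lower, and HOXB3 (0.26), higher. Second probe sets of HOXA6 (−1.16), HOXA11 (−0.86) and PRRX2 (−0.70) were called lower too, while that of HOXA9 was not called and had the opposite sign (0.36). HOXA7 was not called (0.05), though its second probe set was called higher (0.51) and a dimmer one lower (−0.90). HOXA4 and HOXA5 differed by −0.23 and −0.05 and were not called. In uncultured cells HOXA5 had 6.68, 6.92 and 6.44 in the fat line and 6.54, 7.04 and 6.72 in the lean line, so that the −12 h values given above lay below both the uncultured and the 0 h values on every array. HOXA4 had 8.56, 8.48 and 8.38 in uncultured fat-line cells and 7.85, 8.13 and 8.40 in uncultured lean-line cells, again above every −12 h array. The comparison of −12 h with uncultured cells was not tested, and in the fat line it crosses array-name styles.

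**Figure D4:**
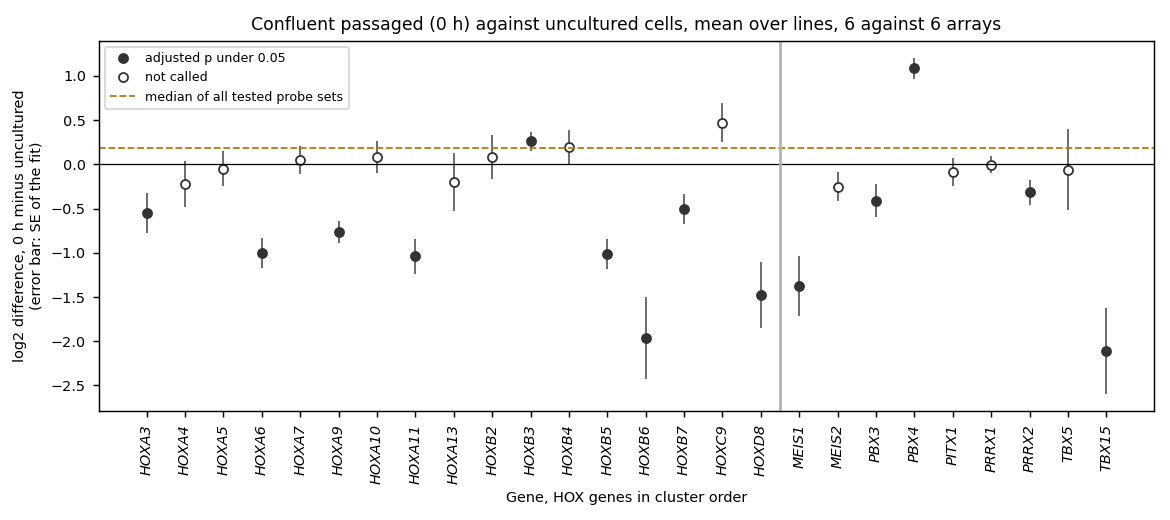
Log2 difference between 0 h and uncultured cells for each gene, averaged over the lines (6 against 6 arrays), with the SE of the fit; filled points were called, and the dashed line marks the median of all tested probe sets, 0.185. TBX15 (−2.11) and HOXB6 (−1.97) lie lowest and PBX4 (1.09) highest. HOXB6 passed the filter only through uncultured fat-line cells, which favoured a lower value at 0 h.

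Markers of other cells moved in the same comparison. Of 10 macrophage markers 8 were lower at 0 h (median −2.14), as were 8 of 9 endothelial (median −2.61), 6 of 7 lymphocyte and 3 of 3 erythroid markers, and 8 of 11 stromal markers were lower by less (median −0.22). ERG was the endothelial marker called higher (3.46). Of 9 adipocyte markers 5 were lower and 1 higher (median −1.06). Muscle markers were higher on 4 of 5 smooth muscle genes (median 2.44), with MYH11 lower (−1.11). Of the 3 skeletal muscle genes that passed the filter 2 were higher, MYH15 (7.32) and ACTA1 (5.49). The skeletal muscle markers MYOD1, MYF5, MYF6, MYOG, PAX7, PAX3 and DES were on the array but did not pass the filter. None of these was above the array median on all 3 arrays of any group. Of 4 mesothelial and epithelial markers 2 were lower and 1 higher. The mean log2 level of the macrophage list ran from 7.29 to 8.79 at 0 h and from 10.08 to 10.83 in uncultured cells, that of the endothelial list from 4.66 to 5.35 and from 6.25 to 7.26. That of the lymphocyte list ran from 3.83 to 4.26 and from 6.97 to 8.24, that of the erythroid list from 2.24 to 3.24 and from 5.93 to 7.16. CD3E (−7.43), HBAD (−6.61) and CD3D (−5.95) were among the markers called lower. A change in the mix of cells and a change within cells cannot be told apart in this comparison. Bacterial control RNAs were lower on 32 of 36 probe sets (median −0.62). The part of these in the members' differences was not tested. Among other patterning factors 16 of 34 were higher and 11 lower, led by IRX2 (2.91), FOXD1 (2.86) and MSX1 (2.84) on the higher side and IRX1 (−2.67) on the lower, and among HOX regulators and retinoid components 5 of 22 were higher and 10 lower, led by the retinaldehyde dehydrogenase ALDH1A1 (−4.18), RXRG (2.60), KDM6A (−2.59) and the Polycomb component EED (2.14). Over all tested probe sets 40.8% were called higher and 28.1% lower.

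MEIS2 was the only one of the 26 genes called for a difference between the lines in the culture effect. In the fat line it had 7.20, 7.19 and 7.31 at 0 h and 6.45, 7.59 and 6.74 in uncultured cells, and in the lean line 7.09, 6.77 and 6.82 at 0 h and 7.36, 8.0 and 7.76 in uncultured cells. The groups overlapped in the fat line and did not in the lean line, and the fat effect minus the lean effect was 1.12 ± 0.33 (adjusted p = 0.0431, limma), where 3.63% of all tested probe sets were called. The share of members called (3.85%) was thus near the background. The call was lost when any of 9 of the 12 arrays was left out, and the second probe set of MEIS2 gave −0.81 (adjusted p = 0.204).

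The fat line and the lean line differed in a few positional genes. In uncultured cells none of the 26 was called by limma (3 at an unadjusted p under 0.05), where 2.85% of all tested probe sets were called. At 0 h HOXA9 was called, where 8.08% of all tested probe sets were. In control cultures from 12 to 120 h 5 of 26 were called, 2 higher and 3 lower in the fat line, against a background of 16.1%, and in oleate cultures 3 of 26, 1 higher and 2 lower, against 15.3%. These shares are near or below the background.

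TBX15 had, over the 12 control arrays of the fat line, a lowest value of 1.61, a median of 3.24 and a highest of 4.24, against 3.65, 4.56 and 5.32 in the lean line. In oleate cultures it had 1.61, 1.90 and 3.39 in the fat line, against 1.65, 4.29 and 5.10 in the lean line. The lines overlapped in both, and the differences were −1.50 ± 0.35 (adjusted p = 0.00192) in control cultures and −1.49 ± 0.35 (adjusted p = 0.00178) in oleate cultures (limma). The fat-line mean was the lower one at each of the 4 hours in both treatments, by between 0.92 and 1.98. It was also lower at 0 h (−1.89 ± 0.69) and −12 h (−0.90 ± 0.69), where it was not called, and in uncultured cells the fat and lean means were 5.56 and 5.32. The comparison at −12 h crosses array-name styles. In control cultures 2 of the 24 arrays lay at the floor and in oleate cultures 6.

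HOXA7 had 8.15, 8.32 and 8.80 in fat-line control cultures (lowest, median and highest of 12), against 7.21, 7.66 and 8.21 in lean-line control cultures. The highest lean array lay above the lowest fat one, and the difference was 0.73 ± 0.11 (adjusted p = 3.65e-06, limma), of the same sign at each hour (0.62, 0.72, 0.88 and 0.72 at 12, 24, 72 and 120 h). The second probe set of HOXA7, nearly as bright, gave 0.18 ± 0.11 (adjusted p = 0.254), and the 2 dim ones gave −0.68 and −0.63. In oleate cultures HOXA7 had medians of 8.12 in the fat line and 7.98 in the lean line and was not called.

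PITX1, the hindlimb factor, had 8.58, 9.11 and 9.54 in fat-line control cultures, against 9.12, 9.67 and 10.18 in lean-line control cultures (−0.55 ± 0.11, adjusted p = 0.000328, limma), with overlap. The difference was −0.89 at 12 h, −0.71 at 24 h, −0.34 at 72 h and −0.28 at 120 h. Its second probe set gave −0.22 ± 0.11 (adjusted p = 0.153). HOXB6 had 1.61, 1.87 and 4.19 in fat-line control cultures, against 1.61, 3.44 and 4.17 in lean-line ones (−1.0 ± 0.33, adjusted p = 0.0302, limma), a call that was lost when any of 8 single arrays was left out. In oleate cultures HOXB6 had 1.61, 3.12 and 3.79 in the fat line, against 1.95, 3.69 and 4.26 in the lean line (−0.96 ± 0.33, adjusted p = 0.0388, limma), lost when any of 13 single arrays was left out.

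HOXA9 had 8.38, 8.49 and 8.48 at 0 h in the fat line, against 7.70, 7.86 and 8.03 in the lean line, without overlap (0.59 ± 0.18, adjusted p = 0.0271, limma). In control cultures it had 8.0, 8.18 and 8.72 in the fat line, against 7.46, 8.03 and 8.39 in the lean line (0.29 ± 0.09, adjusted p = 0.017, limma), a call lost without replicate 1 of the lean 120 h control group (0.25, adjusted p = 0.0512). The call at 0 h was lost when any of 5 of the 6 arrays was left out, with differences of 0.51 to 0.62. The second probe set of HOXA9 had the same sign at 0 h and in control cultures and was called in neither. HOXD8 had 3.86, 4.71 and 6.02 in fat-line oleate cultures, against 1.61, 3.97 and 4.91 in lean-line ones (0.85 ± 0.26, adjusted p = 0.0202, limma), and lost its call without replicate 1 of lean 12 h oleate (0.65), replicate 2 of fat 12 h oleate (0.69) or replicate 2 of fat 24 h oleate (0.72).

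**Figure D5:**
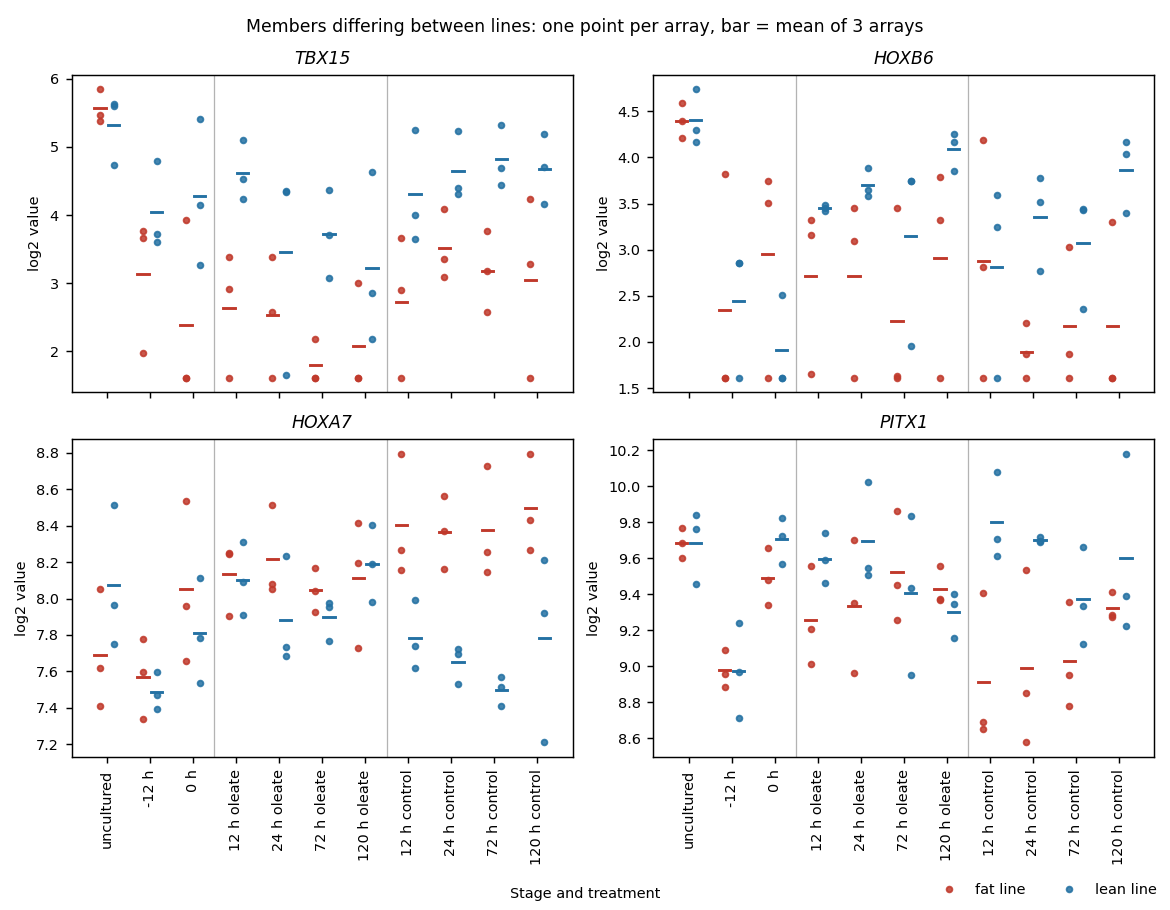
Log2 values of TBX15, HOXB6, HOXA7 and PITX1 on each array (points) and group means (bars) by stage, the fat line in red to the left of the lean line in blue. The lowest points in the TBX15 and HOXB6 panels lie at the floor of 1.61; in control cultures HOXA7 medians are 8.32 and 7.66 and PITX1 medians 9.11 and 9.67.

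Of the other patterning factors, 5 of 34 were called between lines in control cultures and 7 of 34 in oleate cultures, where 16.1% and 15.3% of all tested probe sets were. EYA2 was the lowest in both (−0.85 ± 0.12 and −0.81 ± 0.12), and FOXD1 was called higher in both (0.73 ± 0.18 and 0.65 ± 0.18). Of HOX regulators and retinoid components 2 of 22 were called in control cultures, CYP26B1, which degrades retinoic acid (1.09 ± 0.37), and ALDH1A2, which makes it (−0.46 ± 0.16). Macrophage markers were higher in fat-line control cultures on 4 of 10 genes (median 0.94), with mean log2 levels of the list of 4.56 to 8.13 in the fat line and 4.54 to 6.73 in the lean line. Adipocyte markers were lower on 3 of 9 genes and higher on 1 (median −0.36), led by FABP4 (−1.33), and MYH11 was lower by limma in control (−1.22) and oleate (−1.07) cultures. In control cultures PECAM1 (0.89), PDGFRB (0.41), PTPRC (0.51) and MSLN (0.69) were called higher and CDH5 lower (−1.35). In oleate cultures PDGFRB (0.55), PTPRC (0.56), THY1 (0.42) and TPM2 (0.38) were called higher and LUM lower (−0.53). Bacterial control RNAs were called on no probe set in the control comparison and lower on 32 of 36 in the oleate comparison (median −0.56). Between the lines in uncultured cells 30 of 36 were called higher (median 0.94), and at 0 h 1 was called higher and 5 lower. The part of these in the line differences was not tested.

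A few HOX genes rose between 12 h and 120 h of culture after confluence. In control cultures 3 of 26 genes were called, all higher, where 9.36% of all tested probe sets were called (4.48% higher), and in oleate cultures 4 of 26, all higher, where 13.3% were (6.36% higher), so that the shares of members called, 11.5% and 15.4%, were near the background for calls in either direction. The oleate and control series share no arrays.

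HOXC9, used as a marker of white fat precursors in mice, had 8.17, 8.60 and 9.68 at 120 h in control cultures (lowest, median and highest of 6), against 7.33, 7.83 and 8.08 at 12 h, without overlap (0.98 ± 0.22, adjusted p = 0.00296, limma). In oleate cultures it had 7.51, 8.58 and 9.23 at 120 h, against 7.42, 7.69 and 8.67 at 12 h (0.64 ± 0.22, adjusted p = 0.047, limma), with overlap. The oleate call was lost when any of 7 of the 12 arrays was left out, with a difference as low as 0.39 without replicate 3 of fat 120 h oleate. HOXC9 had its lowest group mean in uncultured lean cells (7.08) and its highest in lean control cultures at 120 h (8.90), groups that differ in array-name style.

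HOXA5 had 5.90, 6.60 and 6.74 at 120 h in control cultures, against 5.03, 5.54 and 6.63 at 12 h (0.88 ± 0.20, adjusted p = 0.00335, limma). In oleate cultures it had 6.28, 6.67 and 7.38 at 120 h, against 5.26, 6.00 and 6.56 at 12 h (0.80 ± 0.20, adjusted p = 0.005, limma). The groups overlapped in both, and the dim second probe set gave −0.15 and 0.01. HOXB7 was called in control cultures, with 6.71, 7.26 and 7.68 at 120 h, against 5.93, 6.68 and 6.92 at 12 h (0.64 ± 0.17, adjusted p = 0.00994), and lost that call without replicate 3 of lean 120 h control (0.52, adjusted p = 0.0575).

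HOXA4 and HOXA6 were called in oleate cultures. HOXA4 had 7.32, 8.41 and 9.32 at 120 h, against 6.92, 7.45 and 7.86 at 12 h (0.85 ± 0.26, adjusted p = 0.0225, limma). HOXA6 had 9.37, 10.00 and 10.59 at 120 h, against 9.06, 9.39 and 9.68 at 12 h (0.50 ± 0.17, adjusted p = 0.0392, limma), and its second probe set was called with a difference of 0.59. Replicate 3 of fat 120 h oleate, the array without a name, was the highest for both, and without it HOXA4 had a difference of 0.54 (adjusted p = 0.175) and HOXA6 one of 0.30 (adjusted p = 0.265). HOXA4 also lost its call without replicate 1 of lean 12 h oleate (0.74) or of lean 120 h oleate (0.81), and HOXA6 when any of 7 single arrays was left out. Each 12 h array, with oleate or without, lay above each −12 h array for both genes, whose −12 h means were 6.38 and 8.43 in the fat line and 6.03 and 8.58 in the lean line. The fat-line −12 h arrays differ in name style from the oleate ones, and the lean-line −12 h arrays from the control ones.

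Of HOX regulators and retinoid components none of 22 was called with time in control culture and 1, KDM6A (0.67 ± 0.13), in oleate culture. Over all tested probe sets 9.36% and 13.3% were called. Among other patterning factors TCF21, a factor of fibroblast and visceral mesenchyme in mice, was lower at 120 h (−1.50 ± 0.40 in control and −1.63 ± 0.40 in oleate cultures), and TWIST2 (1.46 ± 0.35 and 1.13 ± 0.35) and FOXD1 (0.79 ± 0.26 and 0.83 ± 0.26) were higher. Added control RNAs were called on no probe set in the control series and higher on 6 of 36 in the oleate series. Of macrophage markers 1 of 10 was called higher in the control series and 2 of 10 lower in the oleate series. Of 8 smooth and skeletal muscle markers MYH11 (−1.60 in control and −2.28 in oleate cultures) and ACTA1 (−1.33 and −1.53) fell in both series and MYH15 (−1.47) in the oleate series. Of 9 adipocyte markers CD36 fell in both (−2.17 and −2.79), and FABP4 (−2.31) and PPARG (−0.52) in the oleate series. PTPRC was lower in both (−0.80 and −1.06), and CD3E (1.51), LUM (0.58) and DCN (0.23) were higher in the oleate series. The part of these in the members' differences was not tested.

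Between oleate and control cultures these genes were called about as often as all tested probe sets by line, and less often over both lines. Of the 26, 6 were called over both lines and all hours, 2 higher and 4 lower, a share below the 35% of all tested probe sets that were called. Taken by line, 6 were called in the fat line (5 higher and 1 lower, background 25.5%) and 5 in the lean line (2 higher and 3 lower, background 20.3%). At the single hours of each line none of the 26 was called in any of the 8 comparisons (limma), with 1 to 5 at an unadjusted p under 0.05 in each. Over all tested probe sets 6.39, 3.25, 4.67 and 3.28% were called at 12, 24, 72 and 120 h in the fat line and 3.38, 2.2, 2 and 4.96% in the lean line. Every oleate comparison with control also crosses array-name styles, the 2 cannot be told apart, and all 36 bacterial control RNA probe sets were lower in oleate arrays (median −0.60).

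PBX3, another such partner, had 7.64, 8.50 and 9.23 in oleate cultures (lowest, median and highest of 24), against 8.58, 8.92 and 9.61 in control cultures, with overlap (−0.45 ± 0.09, adjusted p = 0.000133, limma). The difference was negative at every hour of both lines, from −0.72 to −0.18. Taken by line, PBX3 was called lower in the fat line (−0.52 ± 0.13) and in the lean line (−0.38 ± 0.13). The lean call was lost when any of 8 single arrays was left out. TBX15 had 1.61, 2.96 and 5.10 in oleate cultures, against 1.61, 4.05 and 5.32 in control cultures (−0.86 ± 0.25, adjusted p = 0.00483, limma), with 8 arrays at the floor. HOXD8 had 1.61, 4.45 and 6.02 in oleate cultures, against 3.56, 5.00 and 6.06 in control cultures (−0.63 ± 0.19, adjusted p = 0.00649, limma). Its difference was −1.09 ± 0.26 in the lean line and was not called in the fat line, and the test between lines was not called (0.93 ± 0.37, adjusted p = 0.187).

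HOXA6 and HOXA5 were the genes called higher with oleate. HOXA6 had 9.06, 9.62 and 10.59 in oleate cultures, against 8.73, 9.19 and 10.05 in control cultures (0.38 ± 0.08, adjusted p = 0.000378, limma), and HOXA5 had 5.26, 6.27 and 7.38, against 5.03, 5.91 and 6.74 (0.32 ± 0.10, adjusted p = 0.0116). Their second probe sets had the opposite sign (−0.17 and −0.71) and were not called. Taken by line, HOXA6 was called higher in the fat line (0.34 ± 0.12) and in the lean line (0.41 ± 0.12). Its fat call was lost when any of 5 single arrays was left out. HOXA5 was called in the fat line only (0.52 ± 0.14). PRRX2 had 7.51, 8.11 and 8.51 in oleate cultures, against 7.77, 8.33 and 8.77 in control cultures (−0.22 ± 0.07, adjusted p = 0.0118, limma), and its second probe set was called lower as well (−0.47). By line PRRX2 was called in the lean line only (−0.33 ± 0.10).

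HOXA7 was the gene whose oleate effect differed between lines (−0.63 ± 0.16, adjusted p = 0.0215, limma), where 1.85% of all tested probe sets were called. In the fat line it had 7.73, 8.12 and 8.52 in oleate cultures, against 8.15, 8.32 and 8.80 in control cultures (−0.28 ± 0.11, adjusted p = 0.0503). Lean-line values were 7.68, 7.98 and 8.40 in oleate cultures, against 7.21, 7.66 and 8.21 in control cultures (0.34 ± 0.11, adjusted p = 0.0207). The sign was the same at all 4 hours within a line, between −0.38 and −0.15 in the fat line and between 0.24 and 0.41 in the lean line. The second probe set of HOXA7 gave a difference between lines of 0.01 (adjusted p = 0.978). With the culture series as a random block the call was lost (−0.63, adjusted p = 0.183).

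In the fat line MEIS1 (0.64 ± 0.24, adjusted p = 0.0418), PITX1 (0.32 ± 0.11, adjusted p = 0.0253) and MEIS2 (0.31 ± 0.12, adjusted p = 0.0484) were also called higher by limma. MEIS1 lost its call when any of 16 of the 24 arrays was left out, MEIS2 when any of 15 was, and PITX1 when any of 6 was. The second probe set of MEIS2 was called in the opposite direction (−0.41, adjusted p = 0.00913), and that of PITX1 in the same one (0.38). Over both lines all 10 macrophage markers were higher in oleate cultures (median 0.94), and 8 of 11 stromal markers were lower and 2 higher (median −0.13). Of 5 smooth muscle markers 3 were lower (median −0.33), and of 9 adipocyte markers FABP4 (1.58) and CD36 (1.54) were higher and PPARG lower (−0.26). CDH1 (0.83), LRRN4 (0.58) and PECAM1 (1.06) were called higher, also over both lines. Taken by line, all 10 macrophage markers were called higher in the lean line, and only CD74 (0.53) in the fat line. PPARG was called lower in the lean line (−0.455) and was not called in the fat line (−0.074). The part of these in the members' differences was not tested.

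The first 12 h after confluence can be compared within 1 array-name style for the oleate cultures, though without a control. None of the 26 was called between oleate cultures at 12 h and cultures at 0 h (limma, 5 at an unadjusted p under 0.05), where 0.549% of all tested probe sets were called. The differences of HOXA3, HOXA4, HOXA5 and HOXA6 were −0.72 ± 0.23, −0.65 ± 0.26, −0.78 ± 0.20 and −0.40 ± 0.17.

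HOXA10, HOXA13, HOXB2, HOXB4, PRRX1 and TBX5 were called in none of the 15 comparisons. PRRX1, a mesenchymal homeobox gene, had group means between 10.89 and 11.18 over the 22 groups, the narrowest range of the 26 genes (0.29). The group means of HOXA10 ran between 4.94 and 5.73, those of HOXB2 between 4.62 and 6.03, those of HOXB4 between 4.70 and 5.88, those of HOXA13 between 3.31 and 5.25 and those of TBX5 between 2.45 and 4.48. At the other end were TBX15, whose group means spanned 3.76 between fat 72 h oleate (1.80) and uncultured fat cells (5.56), MEIS1, which spanned 3.38 between fat −12 h (2.67) and uncultured lean cells (6.05), and HOXD8, which spanned 3.23 between lean 12 h oleate (3.21) and uncultured fat cells (6.43). The lowest and highest groups of MEIS1 differ in array-name style.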

How the data were processed

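The log2 expression values of 38535 probe sets on 66 arrays were used as the authors deposited them. MAS5 is named in the submitters' processing notes, with no version, and other steps are not given in the sources used here. That the deposited values are on a log2 scale was inferred from the values (−5.23 to 13.51). Sorted values of any 2 arrays differed by 0.0615 at most. Per the labels, biotin-labelled cRNA was made from 6 µg of total RNA. The number of arrays limits the precision.

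Probe sets were named through the platform annotation, in which 27178 name 1 gene, 177 several and 11180 none; symbols of all members were found in RefSeq. Values under 1.613, the middle one of the arrays' 20th percentiles, were raised to it. The 96 control probe sets were set apart and fitted alone. The filter kept 22060 probe sets, those for which some group had all 3 arrays above the array's 50th percentile. They were fitted with limma 3.58.1 in R 4.3.3, with 22 group means, 44 residual degrees of freedom, and trended, robust moderation. Two-sided p-values got a Benjamini-Hochberg adjustment across all 22060, and 0.05 was the threshold for a call. None of the 15 comparisons had a replicate block. The fitting steps were tested on simulated data. No genome was used.

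The members and the gene lists were chosen with earlier results of these data known. For each comparison up to 6 called members with the largest absolute log2 difference are given with their values, and genes of the other lists only where called, at most 4 of a list in a comparison. In the oleate comparisons by line most of these members are given by their difference alone. Differences of −12 h from uncultured cells are given as values alone. Alternatives were another floor, filter, moderation, normalization and weighting, blocks, second probe sets and leaving out each array. Array means differed from the common mean by −0.048 to 0.03 only, so centring the arrays on it could change little.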

Additional observations from a re-analysis of the deposited data

Results flagged for a closer look

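MEIS2 stood out because a test of the difference itself found that its change from uncultured cells to 0 h differed between the lines: the fat effect minus the lean effect was 1.12 on the log2 scale (adjusted p = 0.0431, limma). The call was lost when any of 9 of the 12 arrays was left out, and the second probe set gave −0.81. The share of members called in this comparison (3.85%) was near that of all tested probe sets (3.63%).

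HOXA7 stood out in the same way for oleate: the oleate effect of the fat line minus that of the lean line was −0.63 (adjusted p = 0.0215, limma). It stayed called without any single array, but not with the culture series as a random block (adjusted p = 0.183), and the second probe set gave 0.01. Both comparisons also hold differences in bacterial control RNAs, lower on 32 and 33 of 36 probe sets, whose part was not tested.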

How the results depend on the processing

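Of the alternatives run on single genes named in the text, 1415 kept direction and call, 167 lost the call and 10 turned direction, all 10 with the second brightest probe set: MEIS2 in the line difference of the culture effect (−0.81), HOXB3 at confluence in the lean line (−0.12), HOXA5 with time in control culture (−0.15), HOXA5 and HOXA6 with oleate over both lines (−0.71 and −0.17) and in the fat line (−0.21 and −0.12), HOXA6 with oleate in the lean line (−0.21), MEIS2 with oleate in the fat line (−0.41) and the line difference of HOXA7 in the oleate effect (0.013). The cause was not tested. Most of the alternatives left out a single array, so the totals say little about other probe sets. Of other tested probe sets of called genes, 5 of 7 were called in the same direction in the culture effect. The oleate effect had 1 of 3, confluence 0 of 4 in each line, and the line difference in control cultures 0 of 5.

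Counts of called genes moved by over 1.5 times as follows. Without the filter the line difference of the culture effect had 0 and time in oleate culture 2, and with a stricter filter (the 60th percentile) the line difference in uncultured cells had 1. With array weights the line differences had 2 at 0 h, 8 in control and 9 in oleate cultures, the line difference of the oleate effect 3, and oleate at 12 h against 0 h 1. With cyclic loess uncultured cells and oleate at 12 h against 0 h had 1 each. Fitting only the groups compared gave 0 at 0 h, 1 for oleate cultures, 0 for the line difference of the culture effect, 5 for confluence in the lean line and 1 for time in oleate culture. With the second probe sets the line difference had 0 at 0 h and 2 in control cultures, the line difference of the culture effect 0, that of the oleate effect 0, and confluence in the lean line 4. With the culture series as a random block (estimated correlation 0.188) the line difference had 1 in uncultured cells, 3 in control and 1 in oleate cultures, the oleate effect 2 for fat-line and 1 for lean-line cultures, and its line difference 0 (HOXA7, adjusted p = 0.183).

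Deviations of arrays with the same replicate number within a line had a mean r of 0.083 (−0.21 to 0.48 over 330 pairs), against −0.041 for other numbers of the line and 0.007 for the same number in the other line. As not every pair was above 0.1, the main fit had no block for the numbers. Weak pairing would fail this rule too, so it cannot decide whether the numbers pair the arrays. With the number within line as a replicate block the line difference had 1 in uncultured cells, 2 at 0 h, 8 in control and 5 in oleate cultures, and oleate at 12 h against 0 h had 1; the other counts stayed within 1.5 times.

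Leaving out single arrays gave between 5 and 7 called genes for confluence in the fat line, 5 and 10 in the lean line, 11 and 13 for the culture effect, 0 and 1 for its line difference, 0 and 1 for the line difference at 0 h and in uncultured cells, 3 and 7 in control and 1 and 5 in oleate cultures, 6 and 8 for the oleate effect, 2 and 7 in the fat and 3 and 6 in the lean line, 1 and 1 for its line difference, 0 and 1 for oleate at 12 h against 0 h, 2 and 3 for time in control and 1 and 5 in oleate culture. Confluence in the lean line had 5 without replicate 2 of lean −12 h. The line difference had 3 in control cultures without replicate 1 of lean 120 h control, and in oleate cultures 1 without replicate 2 of fat 12 h oleate and 5 without replicate 3 of fat 120 h oleate. The oleate effect had 3 in the lean line without replicate 1 of lean 120 h control, and in the fat line 2 without replicate 2 of fat 12 h oleate and 3 without replicate 3 of fat 24 h or 72 h control. Time in oleate culture had 1 without replicate 1 of lean 12 h oleate or replicate 3 of fat 120 h oleate. Values near the floor (HOXB6, TBX15, MEIS1, HOXD8) limit how far a difference can be measured.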
